A study of Mus musculus with 20 samples.

Results

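The genes of the urea cycle and of arginine metabolism studied here were followed through RNA-seq of 5 mouse tissues: Nags, Cps1, Otc, Slc25a15, Ass1, Asl, Arg1, Arg2, Oat and Gatm. They were chosen by name, as the rows of the count table with these gene symbols, and are 10 of 55401 genes in the table. All 10 were present as a single row.

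The urea cycle turns ammonia into urea. In the mitochondrion, N-acetylglutamate made by NAGS switches on CPS1, which joins ammonia and bicarbonate to carbamoyl phosphate, and OTC passes that group to ornithine to give citrulline. In the cytosol, ASS1 and ASL turn citrulline into arginine, and arginase 1 splits arginine into urea and ornithine, which the carrier encoded by Slc25a15 returns to the mitochondrion. The whole cycle is a property of hepatocytes, whereas the small intestine is known for releasing citrulline and the kidney for making arginine from it. Arg2 encodes the mitochondrial arginase, Oat links ornithine to glutamate and proline, and Gatm makes guanidinoacetate, the precursor of creatine, from arginine and glycine.

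The mice were 8-week-old females on a C57BL/6J background, either wild type (WT) or carrying a CRISPR/Cas9 deletion of exons 3 and 4 of Nsun6 (KO), an RNA m5C methyltransferase gene. Each genotype gave 2 libraries from each of heart, kidney, liver, spleen and small intestine, which makes 10 groups and 20 libraries. The study calls the libraries of a group biological replicates without giving their origin, so the p-values below measure the spread between these libraries. Because whole tissue was sequenced, fewer cells of a type and less RNA per cell cannot be told apart in any value that follows.

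The libraries held 15897446 to 44508197 counts assigned to genes (median 28513950). Levels are given as CPM, counts relative to a library size scaled by edgeR's TMM factors, or as RPKM, which is CPM divided by the length of the merged exons in kilobases, so that genes can be compared. Marker lists for hepatocytes, enterocytes, kidney tubules, cardiomyocytes and lymphocytes each summed highest in the labelled tissue. The Nsun6 level in KO was 64.1% to 102% of that in WT across tissues. Since these counts cover the whole gene and not only the deleted exons, they do not test the genotype labels.

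Some libraries stood apart from others of their tissue in marker sums. The library spleen WT 2 summed to 3641 CPM over 9 hepatocyte markers other than Cps1, against 9.68 in spleen WT 1 and 133 and 192 in the KO spleens. The small intestine libraries of number 2 held 17654 (WT) and 19019 (KO) CPM over 10 markers of the proximal gut, against 301 and 352 in those of number 1. Over 8 markers of the distal gut they held 1199 and 940 CPM, against 14486 and 16678. Kidney WT 1 had the lowest sum of proximal tubule markers in kidney, 25649 CPM against 37498 to 49197, and liver WT 1 the lowest sum of the 9 hepatocyte markers in liver, 196566 against 351251 to 402568. The labels name no gut segment, so the replicate number and the difference in gut markers cannot be told apart.

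Positions are given on the GRCm38 (mm10) assembly. Nags is on chromosome 11 (chr11:102145513-102149477, plus strand), Cps1 on chromosome 1 (chr1:67123026-67231259, plus), Otc on the X chromosome (chrX:10252305-10321024, plus) and Slc25a15 on chromosome 8 (chr8:22375551-22398597, minus). Ass1 (chr2:31470207-31520672, plus) and Gatm (chr2:122594467-122611303, minus) share chromosome 2. Asl is on chromosome 5 (chr5:130011258-130029247, minus), Arg1 on chromosome 10 (chr10:24915221-24927484, minus), Arg2 on chromosome 12 (chr12:79130777-79156301, plus) and Oat on chromosome 7 (chr7:132557478-132576398, minus). RefSeq promoter windows (250 bases before to 50 after a start, build GRCm38.p6) were matched for 6 members, namely Nags, Otc, Slc25a15, Ass1, Oat and Gatm, and not for Cps1, Asl, Arg1 and Arg2.

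The windows of 4 members are shown because their genes stand for the 3 tissue patterns described next: Otc and Nags (liver and small intestine), Ass1 (liver and kidney) and Gatm (kidney). Capitals mark CG dinucleotides, and each sequence runs 5′ to 3′ on the strand of its gene. The windows are chrX:10252055-10252354 (plus), chr11:102145263-102145562 (plus), chr2:31470020-31470319 (plus) and chr2:122611228-122611527 (minus).
Otc: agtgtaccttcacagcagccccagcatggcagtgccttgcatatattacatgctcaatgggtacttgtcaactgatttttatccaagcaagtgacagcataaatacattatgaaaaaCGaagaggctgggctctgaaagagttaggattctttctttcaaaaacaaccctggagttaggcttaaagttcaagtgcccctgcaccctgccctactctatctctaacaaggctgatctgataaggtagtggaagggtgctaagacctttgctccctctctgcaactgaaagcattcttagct
Nags: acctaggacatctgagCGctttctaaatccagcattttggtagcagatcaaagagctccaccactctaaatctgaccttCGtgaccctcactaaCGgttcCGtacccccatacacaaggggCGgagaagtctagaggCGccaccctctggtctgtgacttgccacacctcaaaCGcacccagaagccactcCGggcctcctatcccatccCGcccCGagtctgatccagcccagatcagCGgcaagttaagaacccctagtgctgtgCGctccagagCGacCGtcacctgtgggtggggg
Ass1: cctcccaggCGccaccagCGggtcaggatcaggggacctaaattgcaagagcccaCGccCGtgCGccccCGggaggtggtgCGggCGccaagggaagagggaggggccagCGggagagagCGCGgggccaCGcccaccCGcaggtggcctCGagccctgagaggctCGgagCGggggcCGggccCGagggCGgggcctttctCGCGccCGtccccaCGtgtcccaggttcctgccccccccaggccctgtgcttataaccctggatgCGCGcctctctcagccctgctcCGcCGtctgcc
Gatm: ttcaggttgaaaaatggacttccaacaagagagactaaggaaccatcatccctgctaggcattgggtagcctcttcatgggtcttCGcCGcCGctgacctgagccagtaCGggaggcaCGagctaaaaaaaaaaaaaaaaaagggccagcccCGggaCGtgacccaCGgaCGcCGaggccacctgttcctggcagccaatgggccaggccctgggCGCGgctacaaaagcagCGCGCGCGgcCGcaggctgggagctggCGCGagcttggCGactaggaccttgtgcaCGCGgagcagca

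The windows differed widely in CG content. That of Otc held 1 CG and 44.3% G or C, and 14.1% of all 32851 windows in the table held as few or fewer. Nags had 14 CG (57.7% G or C), Gatm 22 (60.7%) and Ass1 27 (74.0%), against a median of 7 CG and 52.7% over all windows. As few CG or fewer were found in 65.4% of windows for Nags, 78.5% for Gatm and 85.8% for Ass1. The unshown Oat window equalled that of Gatm with 22 CG, and Slc25a15 has 2 windows with 51 and 15.

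A set of 6 short motifs was searched on both strands. The TATA box, spelled TATAAA, occurs in 13.6% of all windows. The CCAAT box occurs in 37.4% and the GC box, spelled GGGCGG, in 35.7%. The element of HNF4, a factor of liver, gut and kidney, was searched as CAAAGTCCA and occurs in 0.475%. That of the CEBP family, TTGCNNAA, occurs in 10.8%, and that of the intestinal CDX factors, TTTATNG, in 10.9%. GC boxes began at base -63 of the Ass1 window and at bases -132 and -41 of the Nags window, counted from the start site. Gatm held CCAAT at -55 and its complement at -190. None of the 6 motifs was found in the Otc window, which says only that these letters are not in it.

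Liver carried all steps of the cycle, and its level of 9 of the 10 genes exceeded that of the kidney or the small intestine or both, the exception being Arg2. The small intestine shared with liver the mitochondrial enzymes that lead to citrulline (Nags, Cps1, Otc). The kidney shared with liver the steps from citrulline to arginine (Ass1, Asl). The carrier gene Slc25a15 was present in liver, small intestine and kidney, with a ratio of medians of 1.95 for small intestine over kidney. Gatm was highest in kidney. Arg2 had its highest median in the small intestine, where the library WT 1 (20.8 RPKM) fell within the kidney range (6.39 to 23.5).

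**Figure D1:**
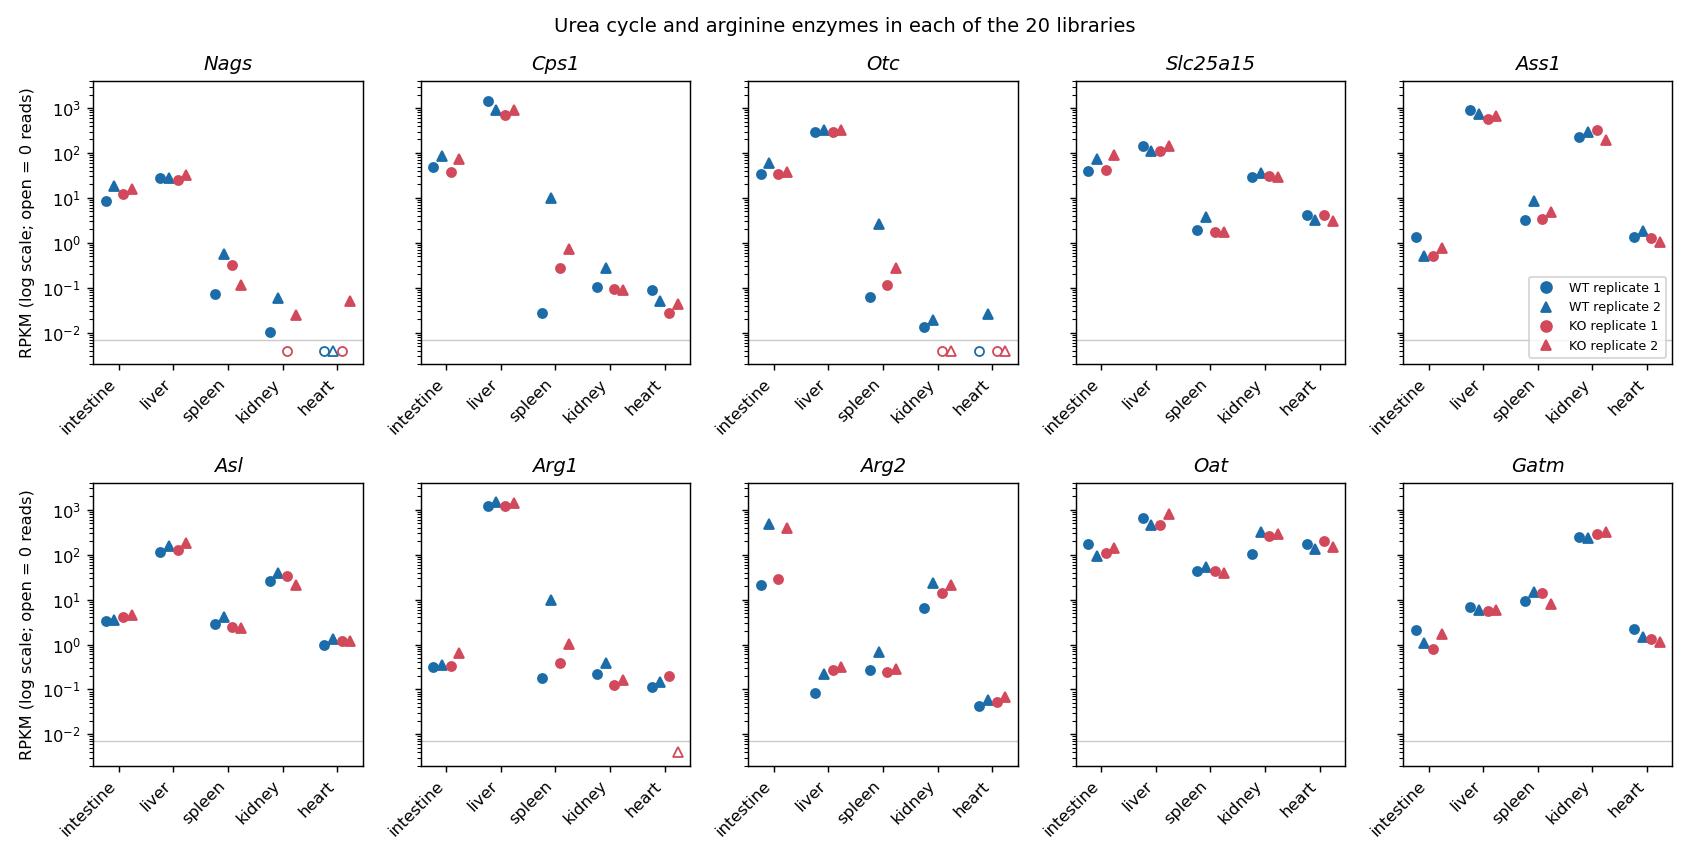
RPKM of each member (log axis) in every library, by tissue; blue is WT and red is KO, circles are replicate 1 and triangles replicate 2, and open symbols below the grey line are libraries with 0 reads. Nags, Cps1 and Otc are high in intestine and liver, Ass1 and Asl in liver and kidney, Arg1 in liver and Gatm in kidney.

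Nags, whose product supplies the activator of CPS1, stood at 27.2 and 27.6 RPKM in WT livers and 25.6 and 31.9 in KO livers. The WT small intestines stood at 8.51 and 18, and the KO small intestines at 12.5 and 16.1. All 4 livers thus lay above all 4 intestines, by a ratio of medians of only 1.91. In kidney Nags had 1, 4, 0 and 2 reads and in heart 0, 0, 0 and 6, where 0 reads allow up to 3, or 0.0291 to 0.0792 RPKM.

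Cps1, the entry enzyme of the cycle, reached 1471 and 902 RPKM in WT livers and 691 and 908 in KO livers. The small intestine held 49.8 and 85.8 in WT and 37.0 and 75.3 in KO. Liver therefore exceeded intestine in every library, with a ratio of medians of 14.5. Kidney (0.0899 to 0.276 RPKM) and heart (0.027 to 0.0895) were at traces.

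Otc, which forms citrulline, was the steadiest member in liver, at 295 and 318 RPKM in WT and 291 and 317 in KO (mean 305 ± 14.3, SD, n = 4). The small intestine had 34.7 and 58.8 in WT and 34.2 and 38.1 in KO, so no intestine reached the level of any liver. Kidney gave 2 and 2 reads in WT and 0 and 0 in KO, and 4 reads fell in the heart libraries. For the KO kidneys, 0 reads allow up to 0.0252 RPKM.

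Slc25a15, the ornithine carrier, was less restricted than Nags, Cps1 and Otc. Its level was 144 and 111 RPKM in WT livers and 108 and 140 in KO livers, 40.1 and 74.1 in WT intestines and 42.8 and 90.1 in KO intestines. Kidney followed closely at 29.3 to 35.5, and heart (3.14 to 4.26) and spleen (1.71 to 3.84) overlapped at the bottom. The ranges of liver, intestine and kidney did not overlap, although neighbours in this order differed by ratios of medians of only 2.15 and 1.95.

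Ass1, which condenses citrulline with aspartate, showed the reverse split between intestine and kidney. Livers held 919 and 733 RPKM in WT and 568 and 669 in KO, and kidneys 222 and 290 in WT and 328 and 193 in KO. The small intestine held 1.36, 0.51, 0.511 and 0.769, below spleen (3.21 to 8.75), and 3 of these 4 values lay below the range of heart (1.06 to 1.79). The kidneys thus exceeded every intestine while staying below every liver.

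Reads of Ass1 could be split with the processed pseudogene Gm5424, whose transcript is 99.5% identical over 1240 aligned bases. In liver and kidney, Gm5424 took 12.9% to 19.3% of the counts of both. Adding them back left the calls for Ass1 between tissues as they were.

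Asl, which releases arginine, followed Ass1 at a lower level. It stood at 117 and 154 RPKM in WT livers, 126 and 179 in KO livers, 25.9 and 38.5 in WT kidneys and 33.4 and 21 in KO kidneys. The small intestine (3.33 to 4.64) overlapped spleen (2.29 to 4.02), and heart was lowest (1.0 to 1.35). Within a library, the ratio of Ass1 to Asl per length was 3.74 to 7.88 in liver and 7.52 to 9.84 in kidney, but 0.122 to 0.408 in the small intestine.

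Arg1, the hepatic arginase that closes the cycle, was high in liver alone. It reached 1222 and 1456 RPKM in WT livers and 1229 and 1407 in KO livers. Outside liver the highest value was 9.56 in spleen WT 2, and the small intestine (0.313 to 0.648), kidney (0.126 to 0.39) and heart (0 to 0.202) overlapped their neighbours.

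Arg2 had nearly the opposite distribution. The small intestine held 20.8 and 481 RPKM in WT and 29.1 and 394 in KO, and kidney 6.39 and 23.5 in WT and 14.3 and 21.5 in KO. Livers had only 0.083 to 0.309, which is 3 to 12 reads per library. The ratio of Arg1 to Arg2 per length was accordingly 4520 to 14700 in liver, 0.00744 to 0.0344 in kidney and 0.00074 to 0.0151 in the small intestine. Of the Arg2 exon bases, 28.1% overlap Vti1b or Gm48780 on the other strand, and 15.6% of those of Nags overlap Gm11586.

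Oat, ornithine aminotransferase, was abundant everywhere. Livers held 643 and 468 RPKM in WT and 452 and 785 in KO, and kidneys 103 and 319 in WT and 259 and 284 in KO. Kidney, heart (134 to 198) and small intestine (94.3 to 174) overlapped one another, and spleen was below them (39.6 to 53.1). Kidney WT 1 was the low library of its tissue.

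Gatm, the first enzyme of creatine synthesis, marked the kidney with 250 and 232 RPKM in WT and 289 and 325 in KO (mean 274 ± 41.5, SD, n = 4). Spleen came next at 8.18 to 14.8, then liver at 5.71 to 6.83, then heart (1.13 to 2.2) and small intestine (0.81 to 2.06), which overlapped. The following enzyme, guanidinoacetate methyltransferase, had the opposite place, with Gamt at 107 to 137 RPKM in liver and 5.19 to 7.1 in kidney. The ratio of Gatm to Gamt per length was 0.0415 to 0.0628 in liver and 39.9 to 55.3 in kidney.

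The tissues were also compared by the shares of Cps1, Otc, Ass1, Asl and Arg1 in their summed RPKM. In the small intestine, Cps1 took 48.6% to 63.0% and Otc 31.9% to 44.8%, and Ass1 no more than 1.52%. In the kidney, Ass1 took 88.1% to 90.7% and Asl 9.22% to 11.7%, and Cps1 no more than 0.0839%. In liver all 5 exceeded 2%, with Arg1 at 30.4% to 42.3%, Cps1 at 23.8% to 36.5%, Ass1 at 19.2% to 22.8%, Otc at 7.34% to 10% and Asl at 2.9% to 5.14%. The library spleen WT 2, with its hepatocyte markers, came closest to that mixture. In that library the 5 shares were 28.5% for Cps1, 7.44% for Otc, 25.1% for Ass1, 11.5% for Asl and 27.4% for Arg1.

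**Figure D2:**
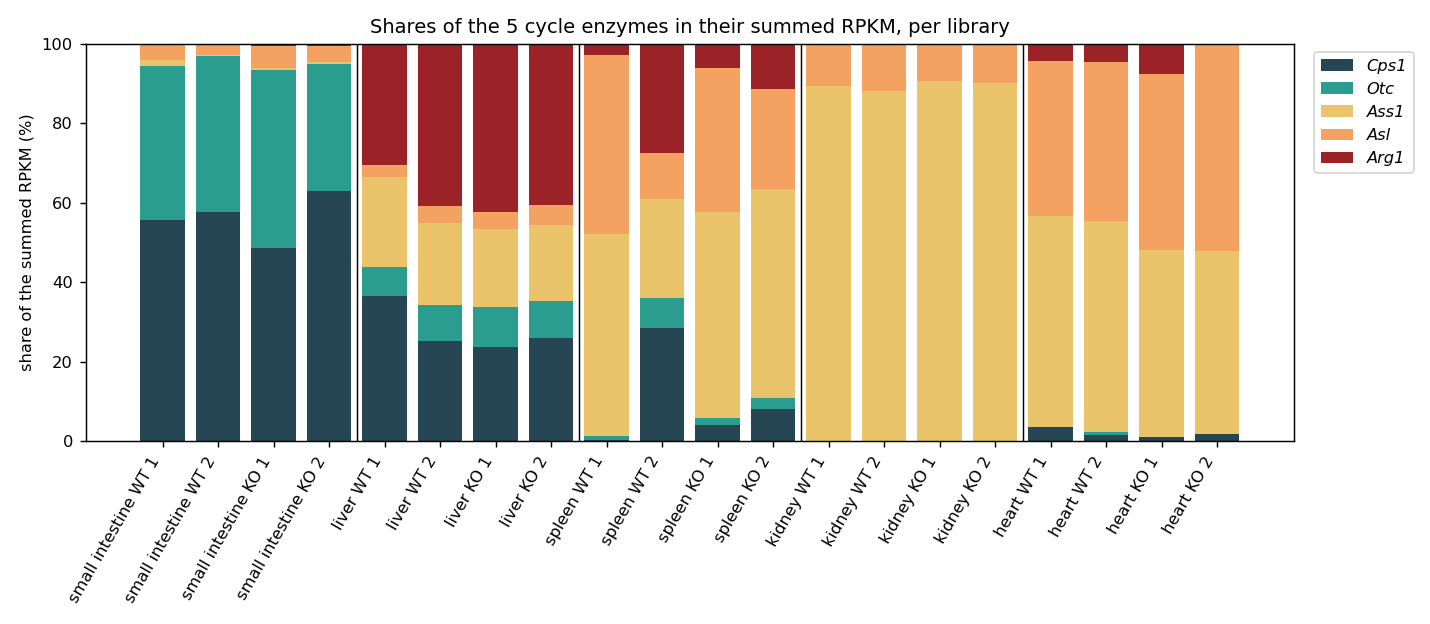
Share (%) of Cps1, Otc, Ass1, Asl and Arg1 in the sum of their RPKM, one bar per library, tissues separated by lines. Small intestine bars are filled by Cps1 and Otc, kidney bars by Ass1 and Asl, and liver bars by all 5; spleen WT 2 has a larger share of Cps1 and Arg1 than the other spleens.

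Tissue means were then compared by edgeR's quasi-likelihood test over all 20 libraries, weighting the genotypes equally. A call needed more than a 2-fold difference together with a p-value below 0.1 after Benjamini-Hochberg adjustment. Between liver and kidney all 10 members were called, against 34.7% of the 23159 genes tested, 8 higher in liver (13.6% of all genes) and 2 lower (21.1%). Between liver and small intestine 9 were called (46.3% of all genes), 8 higher in liver (19.3%) and 1 lower (27%). Between kidney and small intestine 7 were called (45.7%), 3 higher in kidney (22.6%) and 4 lower (23.2%). The median log2 fold change of the members was 2.15, 2.54 and -0.97 in these comparisons, against -0.08, -0.19 and 0.00 for all genes. The comparisons share libraries, so they are not independent of each other.

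The mitochondrial entry steps separated both liver and intestine from kidney. For Cps1 the log2 fold change was 12.84 ± 1.49 (SE) for liver over kidney (edgeR adjusted p = 1.59e-05) and -8.86 ± 1.30 for kidney against intestine (adjusted p = 9.38e-05). Liver exceeded intestine by 3.98 ± 1.03 (adjusted p = 0.00571). With so few kidney reads of Otc and Nags, their fitted values of 16.19 and 10.37 for liver over kidney depend on the model's prior count. From summed reads, Otc was 37300 times higher in liver than in kidney (95% exact counting interval 14600 to 137000) and 4980 times higher in small intestine (1940 to 18300). For Nags these ratios were 1320 (642 to 3300) and 623 (302 to 1550). Such intervals cover counting error only, and they treat reads as independent. They would be too narrow if both mates of a pair were counted.

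Liver and intestine differed less in these genes. Otc was higher in liver by 2.89 ± 0.77 on the log2 scale (edgeR adjusted p = 0.00861). Nags, at 1.03 ± 0.53 (adjusted p = 0.125), was the only member not called in this comparison. Slc25a15 passed with the same estimate and a smaller error, 1.03 ± 0.29 (adjusted p = 0.00928), which is close to the 2-fold limit. It fell below that limit with DESeq2 (0.96), with DESeq2-type size factors in edgeR (0.96) and with libraries scaled by size only (0.50). Against intestine, kidney was lower in Slc25a15 by -0.98 ± 0.29 (adjusted p = 0.0123) and was not called for size. It was called with DESeq2 (-1.07), with DESeq2-type size factors (-1.07), with at least 10 counts in every library (-1.01), with KO libraries only (-1.16) and with the intestine libraries of number 2 alone (-1.39).

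The arginine-making steps separated both liver and kidney from intestine. Ass1 was higher in liver than in intestine by 9.85 ± 0.51 on the log2 scale (edgeR adjusted p = 4.57e-09) and in kidney by 8.38 ± 0.48 (adjusted p = 1.64e-08). For Asl these differences were 5.20 ± 0.26 (adjusted p = 3.84e-09) and 2.92 ± 0.24 (adjusted p = 2.84e-07). Liver exceeded kidney by 1.47 ± 0.35 in Ass1 (adjusted p = 0.00434) and by 2.28 ± 0.23 in Asl (adjusted p = 2.81e-06). The Ass1 difference fell to 0.70 and was no longer called when libraries were scaled by size only, a scaling that moved the median of all genes by -0.777 in this comparison.

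Both arginases separated liver from kidney and intestine, in opposite directions. Arg1 was higher in liver by 12.63 ± 1.32 on the log2 scale against kidney (edgeR adjusted p = 6.41e-06) and by 11.68 ± 1.27 against intestine (adjusted p = 6.21e-06). Between kidney and intestine it was not called (-0.95 ± 0.93, adjusted p = 0.428). Arg2 was lower in liver, by -6.29 ± 1.09 against kidney (adjusted p = 0.000484) and by -10.10 ± 1.23 against intestine (adjusted p = 1.9e-05). Kidney was below intestine in Arg2 by -3.82 ± 0.89 (adjusted p = 0.00337), but with the intestine libraries of number 1 alone the value was -0.63 and the call was lost.

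Among the users of ornithine and arginine, Gatm stood out in kidney, with a log2 difference of -5.49 ± 0.34 for liver against kidney and 7.60 ± 0.38 for kidney against intestine (edgeR adjusted p = 3.38e-08 and 5.3e-09). Liver also exceeded intestine in Gatm, by 2.11 ± 0.30 (adjusted p = 4.15e-05). Oat was higher in liver by 2.18 ± 0.35 against intestine (adjusted p = 0.00012) and by 1.29 ± 0.34 against kidney (adjusted p = 0.00725). The latter rested in part on kidney WT 1, without which it was 0.98 and not called. Kidney exceeded intestine in Oat by 0.89 ± 0.33 (adjusted p = 0.0388), under the 2-fold limit. This difference was also called with limma, with scaling by library size only (1.04), with KO libraries only (1.13) and with the intestine libraries of number 2 alone (1.07).

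**Figure D3:**
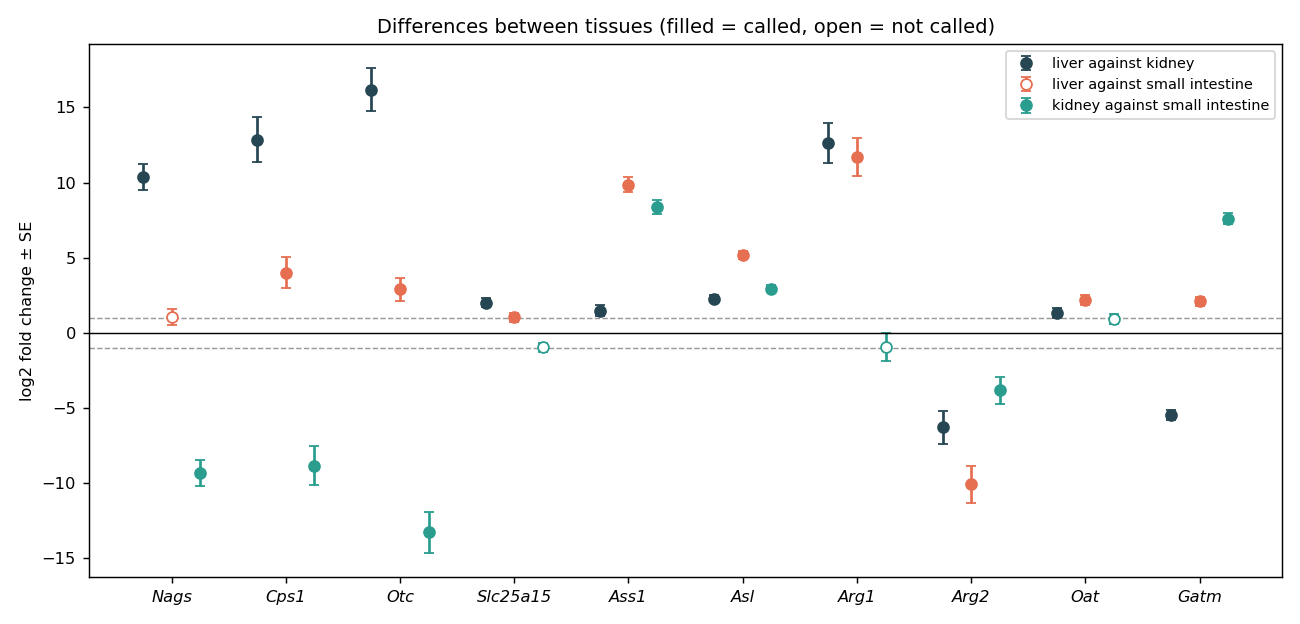
Log2 fold change for each member in the 3 comparisons of tissue means, with the error (SE) derived from the test statistic. Filled symbols were called and open ones were not, and dashed lines mark a 2-fold change. Nags, Cps1 and Otc are far above 0 for liver against kidney and far below 0 for kidney against intestine, while Ass1, Asl and Gatm are above 0 for kidney against intestine.

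Neighbouring reactions were followed in 6 gene lists, whose counts are read beside the shares of all genes called above. Of 16 genes that link ornithine to proline and glutamate, 6 were higher and 2 lower in liver than in kidney, and 9 were higher and 3 lower in liver than in intestine. Gls2, liver-type glutaminase, stood at 115 to 215 RPKM in liver and at most 0.343 in intestine and 0.166 in kidney. Aldh18a1, which makes the precursor of ornithine and proline from glutamate, was at 6.33 to 24.8 in intestine and at most 0.666 in kidney and 0.365 in liver. Prodh2, hydroxyproline dehydrogenase, led the 7 genes of this list that were higher in kidney than in intestine (log2 difference 7.68 ± 1.39, edgeR adjusted p = 0.000878), and 2 were lower.

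Carriers for cationic amino acids split by tissue. Of 8 genes, 7 were lower in liver than in kidney and 7 lower in liver than in intestine. The exception in both was Slc7a2, a carrier for arginine, lysine and ornithine, at 54.3 to 109 RPKM in liver, 0.775 to 1.67 in kidney and 0.143 to 0.253 in intestine. Slc7a9, the light subunit of the cystine and dibasic amino acid exchanger of the brush border, was at 93.1 to 307 RPKM in intestine and 54.3 to 63.5 in kidney, with at most 0.0295 in liver. Between kidney and intestine 1 gene of the list was higher, 2 were lower and 5 were not called.

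In the list for ammonia, bicarbonate and aspartate supply and their regulators, 5 of 12 genes were higher and 3 lower in liver than in kidney, and 7 were higher and 0 lower in liver than in intestine. Car5a, the mitochondrial carbonic anhydrase that supplies CPS1 with bicarbonate, was at 21.6 to 38.2 RPKM in liver, 1.02 to 2.96 in kidney and at most 0.0434 in intestine. It was thus at or near 0 in the intestine, where Cps1 stood at 37.0 RPKM or more. Rhcg, a renal ammonia channel, was at 12.8 to 49.8 in kidney and at most 0.066 in liver and 0.0521 in intestine. Between kidney and intestine 5 genes of this list were higher and 1 was lower, which was Cebpb (-2.60 ± 0.60 on the log2 scale, edgeR adjusted p = 0.0025).

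Of 12 polyamine genes, 3 were higher and 4 lower in liver than in kidney, 3 higher and 3 lower in liver than in intestine, and 5 higher and 4 lower in kidney than in intestine. Agmat, agmatinase, was at 118 to 172 RPKM in liver, and Odc1, which draws ornithine into polyamines, at 117 to 145 in kidney and 35.5 to 50 in intestine and liver. Of 6 creatine genes, 2 were higher and 3 lower in liver than in kidney, and 1 was higher and 5 lower in each of liver and kidney against intestine. Gamt was the 1 that was higher against intestine in both, and Ckmt1, the mitochondrial creatine kinase, was lowest in liver (at most 0.111 RPKM against 168 to 928 in intestine). The 5 lower genes included Ckmt2, at medians of 0.294 RPKM in intestine (highest 11.7), 0.0625 in kidney and 0.0248 in liver. Its level in heart was 1690 to 3007 RPKM, and the part of the cardiomyocyte markers in small intestine KO 1 was not tested. Of 5 nitric oxide genes, 0 were higher and 2 lower in liver than in kidney, 1 higher and 2 lower in liver than in intestine, and 3 higher and 1 lower in kidney than in intestine. The synthases Nos1, Nos2 and Nos3 were at 1.1 RPKM or less in liver and kidney. Nos3 was higher in both than in intestine (edgeR adjusted p = 0.000205 and 0.000203), where it was at most 0.163 RPKM. Nos2 was lower in both than in intestine (edgeR adjusted p = 0.0017 and 0.00291), where it ranged from 0.0557 to 57.6 RPKM between libraries.

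Patterns most like those of 6 members were found by Pearson's r of log2 CPM over the 20 libraries and 23159 genes. For Cps1 these were Otc (0.9855), Cyp3a25 (0.9832) and Hsd17b13 (0.9809), and for Otc they were Cyp3a25 (0.9895), Cps1 (0.9855) and Nags (0.9842). For Arg1 they were Cyp2c40 (0.9906), Cyp2c70 (0.9901) and Plg (0.9884). For Ass1 the nearest was its pseudogene Gm5424 (0.9906), which can share its reads, then Gm27216 (0.9828) and Aass (0.9828). For Arg2 they were Nat8f5 (0.9801), Erlin2 (0.9717) and Gm11373 (0.9716), and for Gatm Polr3e (0.9719), Vill (0.9581) and Zfp618 (0.9558). The libraries of a tissue share most of this variation, so these values describe a likeness across 5 tissues.

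Within the small intestine, Arg2 differed more between replicate numbers than between genotypes. It was 23.2 times higher in WT 2 than in WT 1 and 13.5 times higher in KO 2 than in KO 1. Cps1 was also higher in the libraries of number 2, by 1.72 (WT) and 2.03 times (KO), and Slc25a15 by 1.85 and 2.1 times. Nags (2.12 and 1.29 times) and Otc (1.7 and 1.12 times) were higher in number 2 as well, while Ass1, Oat and Gatm were lower in WT 2 than in WT 1 and higher in KO 2 than in KO 1. The libraries of number 2 are those with the higher sums of proximal markers, and the part of gut position in these ratios was not tested.

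**Figure D4:**
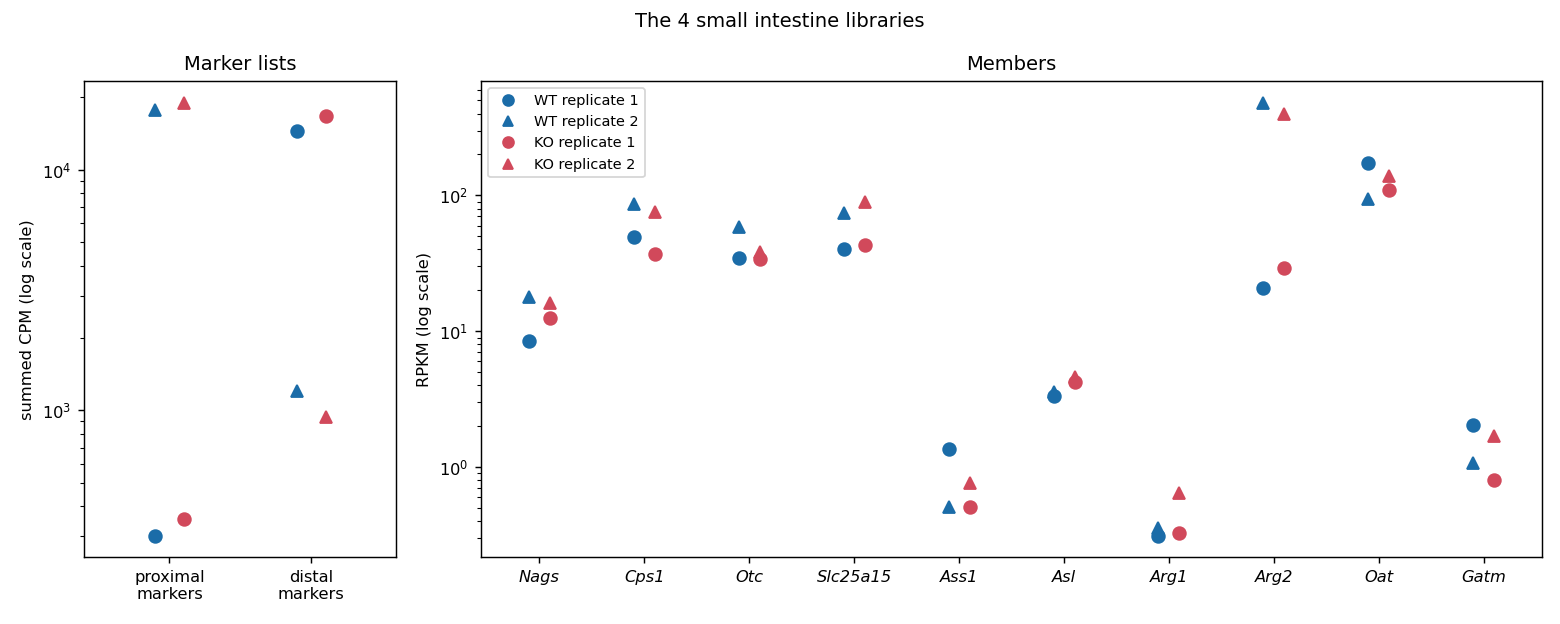
Summed CPM of the proximal and distal gut marker lists (left) and RPKM of each member (right) in the 4 small intestine libraries, on log axes. Triangles (number 2) are high for proximal and low for distal markers in both genotypes, and Arg2 is at 481 and 394 RPKM in them against 20.8 and 29.1 in the circles (number 1).

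The comparison of KO with WT asked whether loss of Nsun6 changed these enzymes in any tissue. No member was called in any of them. The number of members with enough reads to be tested was 10 in small intestine, 9 in liver (not Arg2), 10 in spleen, 8 in kidney (not Otc or Nags) and 5 in heart (Slc25a15, Ass1, Asl, Oat and Gatm). By edgeR's quasi-likelihood test 0 members were called in small intestine (0.0% of all genes tested), liver (0.0509%), spleen (0.223%), kidney (0.0%) and heart (0.0%). At an unadjusted p under 0.05 there were also 0 members in each tissue, and DESeq2 called 0. The share of all genes under that p was 2.39% in small intestine, 4.7% in liver, 5.14% in spleen, 0.638% in kidney and 0.703% in heart. For 5 to 10 members tested, a count of 0 lies near these shares. With 2 libraries a group, a p that misses the threshold does not show that the genotypes were alike.

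In liver, the tissue with the highest levels, the estimates were small. The log2 difference of KO from WT was -0.01 ± 0.23 for Otc, -0.03 ± 0.27 for Arg1, 0.06 ± 0.18 for Nags and -0.05 ± 0.24 for Slc25a15. The lowest were Cps1 at -0.57 ± 0.33 and Ass1 at -0.42 ± 0.25 (edgeR adjusted p = 0.999 for each). Without liver WT 1, the library with the low hepatocyte markers, they were -0.20 and -0.27. Without WT 2 they were -0.87 and -0.56. All of these were under the 2-fold limit, and in each of these fits 1 library stood for WT. Ass1 was the 1 liver member whose KO libraries both lay below both WT libraries, while for Cps1 KO 2 (908 RPKM) exceeded WT 2 (902). The median over the 9 members was -0.03, against 0.00 for all genes.

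In small intestine the estimates had wide errors, widest for Arg2 at -0.27 ± 1.77. The others ran from -0.59 ± 0.73 for Ass1 to 0.50 ± 0.72 for Arg1, with a median of -0.21. In kidney, Cps1 (-1.04 ± 0.76) and Arg1 (-1.10 ± 0.77) had the lowest values, at 14 to 37 and 8 to 21 reads per library, and Ass1 stood at 0.00 ± 0.45. Without kidney WT 2, which had the highest hepatocyte marker sum of the kidneys (387 CPM against 113 to 231), Cps1 was at -0.19 and Arg1 at -0.64. In heart, Gatm (-0.61 ± 0.40) and Ass1 (-0.47 ± 0.43) were lowest and Oat was highest (0.15 ± 0.31). The median was -0.08 in both kidney and heart.

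Members whose genotypes did not overlap were few in each tissue. In small intestine this held for Asl, higher in KO, and for 25.1% of all genes tested. In liver it held for Ass1, lower in KO (33.3% of genes), and in spleen for Asl and Slc25a15, lower in KO (31.5%). In kidney it held for Gatm, higher in KO, and for Cps1 and Arg1, lower in KO (21%), and in heart for Ass1 and Gatm, lower in KO (17.2%). The share of members was thus below that of all genes in small intestine, liver and spleen and above it in kidney and heart, with counts of 3 of 8 and 2 of 5.

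In spleen all 10 members had a negative estimate, with a median of -0.61, and the lowest were those that mark hepatocytes. Cps1 stood at 0.0276 RPKM in WT 1 and 9.92 in WT 2, and at 0.27 and 0.729 in KO. Otc (0.0633 and 2.59 in WT, 0.118 and 0.272 in KO) and Arg1 (0.181 and 9.56 in WT, 0.398 and 1.04 in KO) had the same order of libraries. In each of these genes WT 2 was highest and WT 1 lowest, so that the KO libraries lay between the WT libraries. The log2 differences were -3.30 ± 3.08 for Cps1, -2.74 ± 2.17 for Otc and -2.74 ± 2.38 for Arg1 (edgeR adjusted p = 1 for each).

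The level in spleen WT 2 was 0.999% of the liver mean for Cps1, 0.849% for Otc, 0.72% for Arg1 and 1.21% for Ass1, and the 9 hepatocyte markers stood there at 0.971% to 2.02% of their liver mean (median 1.32%). Without WT 2 the estimates turned to 4.23 ± 0.85 for Cps1, 1.69 ± 0.87 for Otc and 2.06 ± 0.78 for Arg1, 8 of 10 members were above 0, and Cps1 was called (edgeR adjusted p = 0.043, with 1.35% of all genes called). Without WT 1, which had the lowest levels of these genes, Cps1 (-4.30 ± 0.59), Otc (-3.72 ± 0.51) and Arg1 (-3.72 ± 0.53) were called with the opposite sign (adjusted p = 0.0467, 0.00193 and 0.0126, with 1.86% of all genes called). The direction in spleen thus depended on which WT library was kept, and in each such fit 1 library stood for WT and was assumed to vary like the pair of KO libraries.

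**Figure D5:**
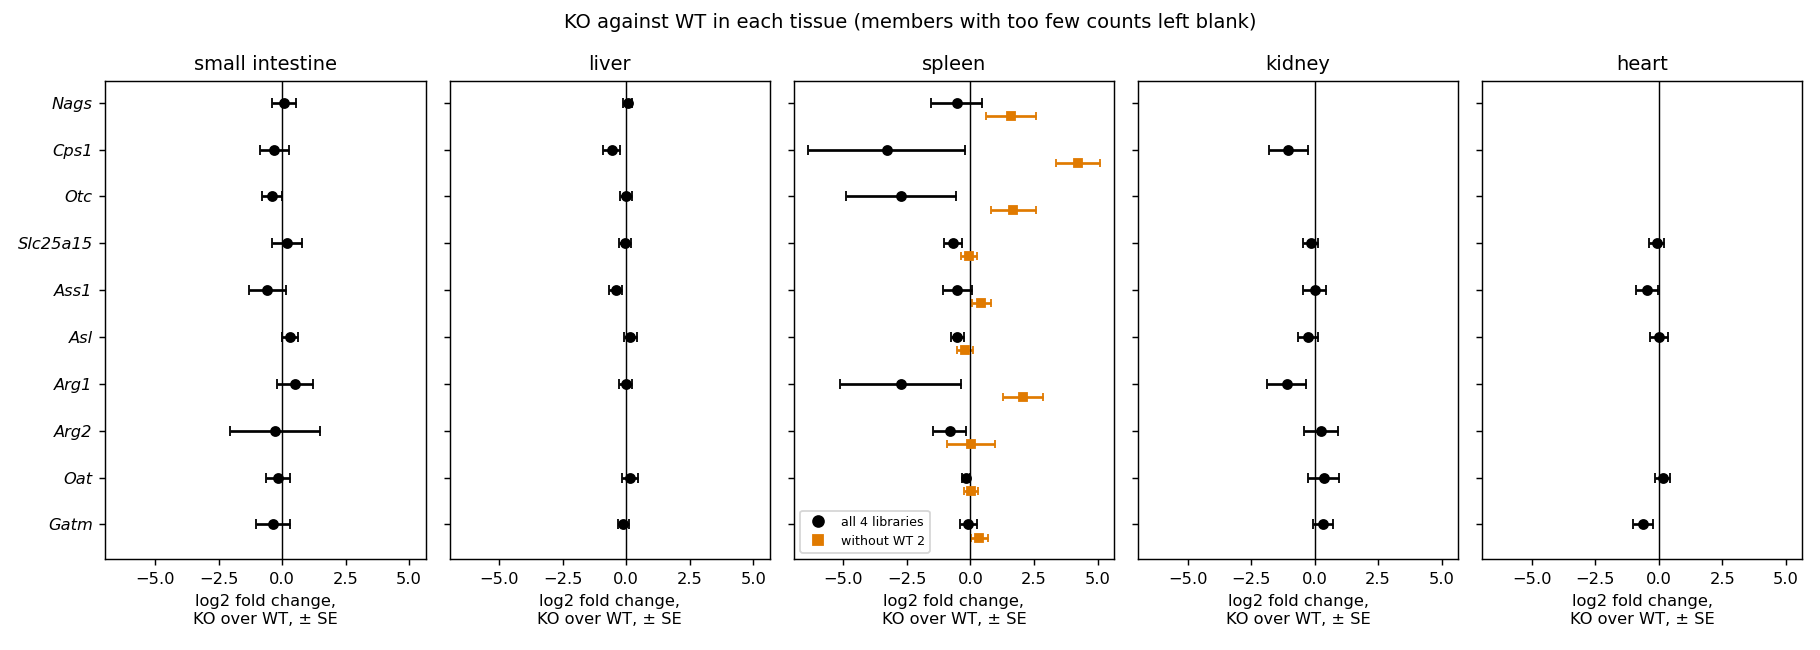
Log2 fold change of KO over WT for each member tested, 1 panel per tissue, with the error (SE) derived from the test statistic. In spleen the orange squares leave out WT replicate 2. Outside spleen the black symbols lie between -1.10 and 0.50, and for Cps1, Otc and Arg1 in spleen the orange squares lie on the other side of 0.

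In kidney, leaving out WT 2 gave calls for Arg2 (1.46 ± 0.31, edgeR adjusted p = 0.0469) and Oat (1.37 ± 0.19, adjusted p = 0.0155), higher in KO, when 2.37% of all genes were called. The WT 1 library left in that fit had the lowest kidney levels of both genes, 6.39 RPKM of Arg2 and 103 of Oat. It also had the lowest proximal tubule sum (25649 CPM) and the highest sum of distal nephron markers (6905 CPM, against 4550 to 6486), and their part in these calls was not tested. With all 4 libraries the differences were 0.25 ± 0.65 and 0.35 ± 0.60.

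A genotype effect common to the tissues was estimated from all 20 libraries with tissue as a term. Of the 10 members, 0 were called, against 0.00432% of all genes. An unadjusted p under 0.05 was found for 0 members and for 2.28% of all genes, and DESeq2 called 0 members. The estimate was negative for 9 members and Oat was at 0.07 ± 0.19. The lowest were Cps1 at -1.18 ± 0.65 and Otc at -1.13 ± 0.60, which became -0.23 and -0.12 without spleen WT 2. The interaction of tissue and genotype was called for 0 members and for 0.0% of all genes by edgeR. Its unadjusted p was under 0.05 for 0 members and for 2.31% of all genes, and DESeq2 called 0 members. No genotype effect on the members was thus found to differ between tissues at this depth.

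The 6 lists of neighbouring reactions held 0 genes called between genotypes in any tissue, in the common effect or in the interaction.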

How the data were processed

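RNA-seq libraries from 5 tissues of WT and Nsun6 KO mice were used, 2 per group. The authors deposited raw read counts per gene; per their methods and processing notes, reads were trimmed with cutadapt, aligned to mm10 with HISAT2 2.1.0 and counted with featureCounts 2.0.1 on an Ensembl annotation. The methods state strand-specific, paired counting, but the command stored in the deposited count table names neither option. Genes that overlap on opposite strands may thus share reads, and both mates of a pair may have been counted. Among low gene counts, 54.9% to 59.8% were even across libraries. The members and gene lists were chosen with earlier results of these data known.

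Counts were tested with edgeR 4.0.16 (quasi-likelihood, TMM, filterByExpr) in R 4.3.3, within each tissue for KO against WT and over all 20 libraries for tissues, the common genotype effect and the interaction. Benjamini-Hochberg adjustment covered all genes tested. Calls required an adjusted p under 0.1 with more than a 2-fold change. The SE of a log2 fold change was its absolute value divided by the square root of the F statistic. RPKM used merged exon length. DESeq2 1.42.0 and limma 3.58.1 on log2(TPM + 0.1), with a minimum of 1 TPM, were alternatives, as were other scaling, no filter, at least 10 counts in every library, left-out libraries and a replicate block. Adding the counts of Gm5424 to Ass1 and using the small intestine libraries of one number alone were chosen after seeing the data. The test was tested on simulated data.

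Named genes were all members, the genes with the highest and lowest fold change among those called in each list and tissue comparison, Gamt and Odc1, and for 6 members the 3 genes with the highest Pearson r of log2 CPM (prior count 2). A gene that this rule names is not reported here. Promoter windows came from RefSeq, and Gm5424 was aligned to Ass1 with blastn 2.17.0. Counting intervals are exact 95% intervals, and 0 reads were taken to allow up to 3. Both treat reads as independent and are too narrow if the mates of a pair were counted separately.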

Additional observations from a re-analysis of the deposited data

How the results depend on the processing

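Depth limited the members with few reads. From the genotype tests within tissues, the filter on low counts removed Otc and Nags in kidney and Arg2 in liver. In heart it removed Nags, Cps1, Otc, Arg1 and Arg2. None of these was called by DESeq2 or without the filter. The tissue ratios of Otc and Nags against kidney and of Arg2 in liver rest on a handful of reads. With 2 libraries a group, single libraries decided several genotype values. When at least 10 counts were required in every library, 5 members remained to be tested, and 5, 4 and 4 were called for liver against kidney, liver against small intestine and kidney against small intestine. No tissue difference turned its direction under any alternative run.

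The labels do not say what a replicate number shares, and the data did not pair the libraries in every tissue: the correlation of replicate differences between WT and KO was 0.57 in small intestine, 0.038 in liver, 0.007 in spleen, 0.126 in kidney and 0.365 in heart. In small intestine the numbers also matched across genotypes in the gut markers. With a replicate block, 0 members were called between genotypes, and 10, 10 and 7 in the 3 tissue comparisons, Nags being added for liver against small intestine (1.14). The block turned Arg2 in small intestine (0.06), Ass1 in kidney (-0.04), Asl in heart (0.01), and Arg2 (0.16) and Nags (0.08) in the common genotype effect.

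Apart from left-out libraries, the other alternatives that turned a log2 genotype difference left it near 0, and the cause was not tested. With limma these were Arg2 (0.17) and Oat (0.01) in small intestine, Asl (-0.03), Nags (-0.13) and Oat (-0.07) in liver, Ass1 in kidney (-0.01) and Asl in heart (0.01). With DESeq2 they were Ass1 in kidney (-0.01), Asl in heart (0.02), and Arg2 (0.01) and Nags (0.01) in the common effect. With DESeq2-type size factors in edgeR they were Ass1 in kidney (-0.02) and Asl in heart (0.02). Asl in heart was 0.02 in the fit of all 20 libraries and 0.00 without a filter, and Ass1 in kidney was -0.03 with Gm5424 added.

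Between tissues, scaling by library size only moved the median of all genes by -0.777 for liver against kidney, -0.562 for liver against small intestine and 0.214 for kidney against small intestine. Oat lost its call for liver against kidney with it (0.57), with limma (0.53) and with WT libraries only (1.36), and Ass1 lost it with limma (0.66). With WT libraries only, Cps1 (4.15) and Otc (2.73) lost theirs for liver against small intestine. Leaving out small intestine WT 1, small intestine KO 1 or kidney WT 2 gave a call for Slc25a15 for kidney against small intestine (-1.20 to -0.70 over all fits with 1 library left out), and leaving out small intestine WT 1 or kidney WT 1 gave one for Oat (0.32 to 1.22 over those fits).

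Leaving out 1 library at a time, which assumes that a library left alone in its group varies like the others, gave 0 to 3 members called in spleen, 0 to 2 in kidney, 9 to 10 for liver against kidney, 8 to 9 for liver against small intestine and 7 to 9 for kidney against small intestine. In small intestine the log2 genotype differences ranged from -0.97 to 0.14 for Cps1, -0.74 to 0.01 for Otc, -1.13 to 0.29 for Ass1, -0.13 to 0.94 for Arg1, -3.21 to 3.33 for Arg2, -0.37 to 0.71 for Nags, -0.51 to 0.69 for Slc25a15, -0.54 to 0.35 for Oat and -1.05 to 0.20 for Gatm. Each of these fits set both replicate numbers of a genotype against a single number of the other. The numbers differed in gut markers there, so these ranges also hold the difference between numbers. In liver they ranged from -0.87 to -0.20 for Cps1, -0.56 to -0.27 for Ass1, -0.09 to 0.06 for Otc, -0.10 to 0.39 for Asl, -0.17 to 0.12 for Arg1, -0.08 to 0.19 for Nags, -0.23 to 0.13 for Slc25a15 and -0.28 to 0.48 for Oat. In spleen they ranged from -4.30 to 4.23 for Cps1, -3.72 to 1.69 for Otc, -1.08 to 0.43 for Ass1, -3.72 to 2.06 for Arg1, -1.37 to 0.02 for Arg2, -1.43 to 1.6 for Nags, -0.34 to 0.02 for Oat and -0.52 to 0.35 for Gatm. In kidney they ranged from -1.57 to -0.19 for Cps1, -1.44 to -0.64 for Arg1, -0.43 to 0.37 for Ass1, -0.64 to 0.06 for Asl, -0.40 to 1.46 for Arg2 and -0.24 to 1.37 for Oat. In heart they ranged from -0.17 to 0.24 for Asl, -0.26 to 0.15 for Slc25a15 and -0.07 to 0.36 for Oat. In the common effect they ranged from -0.13 to 0.02 for Asl, -1.06 to 0.05 for Arg1, -0.48 to 0.57 for Arg2, -0.16 to 0.36 for Nags and -0.03 to 0.16 for Oat.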
